A study of Drosophila melanogaster with 8 samples.

Results

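The CYP4 clan is one of the branches of the cytochrome P450 family. Its members in Drosophila melanogaster were taken here as the genes whose FlyBase symbol begins with Cyp4, Cyp311, Cyp312, Cyp313, Cyp316 or Cyp318 followed by a letter, with pseudogenes left out, so that their choice used names and no measured value. The rule found 32 of the 13942 genes with a value. By chromosome arm, 9 of them lie on X, 5 on 2L, 7 on 2R, 4 on 3L and 7 on 3R.

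P450 enzymes are heme proteins that insert an oxygen atom into lipids, hormones and foreign compounds, using electrons that NADPH-cytochrome P450 reductase passes to the microsomal members. CYP4 enzymes of animals are known mainly for oxidizing fatty acids and related lipids. The best known fly member, Cyp4g1, completes the synthesis of cuticular hydrocarbons in oenocytes, and its relative Cyp4g15 is known from the nervous system. The product of Cyp4d21, also called sxe1, is a male-enriched enzyme of the head fat body, Cyp311a1 acts in lipid metabolism of the larval midgut, and Cyp4e3 in the tubules affects tolerance of the insecticide permethrin. The Malpighian tubules, which form the fly's urine, are also a main site of its detoxification of foreign compounds. Most other members have no function that could be given here with certainty.

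The libraries were made from poly(A) RNA of the Malpighian tubules of adults of a European population from the Netherlands and an African population from Zimbabwe. The 4 groups were European males, European females, African males and African females, with 2 biological replicates each, which makes 8 libraries. All groups were wild-derived and untreated and shared 1 medium, 22° and a cycle of 14 h light and 10 h dark, and the labels give an age of 2 to 4 days. Each library was a pool of tubules from several isofemale lines (lines started from single wild females), so that differences among lines within a population are averaged and cannot be seen. The design asks which genes differ between the sexes and between the populations, and whether a difference between the sexes depends on the population.

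The libraries held 19528634 to 27099855 reads over the listed genes. Levels are given as deposited, as RPKM (reads scaled by the length of the longest transcript and by the size of the library), which allows levels to be compared between genes. Markers of tubule cells were high, since the summed RPKM of 7 principal cell genes was 6888 to 10572 and that of 6 stellate cell genes was 430 to 563. Markers of other organs were also detected. The sum of 9 midgut genes was 3040 RPKM in African males 1 and 829.6 RPKM in African males 2, against 35.9 to 143 RPKM in the remaining libraries. Fat body markers (8 genes) summed to 18.2 to 45.1 RPKM in males and 874 to 1739 RPKM in females, where the yolk protein genes Yp1, Yp2 and Yp3 made up most of the sum, and testis markers (10 genes) to 11.3 to 121 RPKM in males and 0.720 to 1.34 RPKM in females. Since the tissue was sequenced in bulk, fewer cells of a type and less RNA per cell cannot be told apart.

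CYP4 clan genes differed widely in their tubule levels. Their mean RPKM over the 8 libraries was above 100 in 4 members, between 10 and 100 in 7, between 1 and 10 in 12 and under 1 in 9, and 29 members had reads in every library. The 5 members with the highest means were Cyp4e2 (446 RPKM), Cyp4e3 (192), Cyp4p1 (107), Cyp4p3 (103) and Cyp4d2 (78.8). These 5 genes held 68.3% to 81.7% of the summed RPKM of the clan in each library, and the 10 highest held 93.8% to 96.6%. Cyp4g1 (76.1 RPKM), Cyp4s3 (44.7), Cyp4e1 (44.3), Cyp4d8 (37.9), Cyp4d14 (28.9) and Cyp4p2 (18.7) followed. Cyp4ae1 at 8.81 RPKM led the members between 1 and 10, and Cyp4g15, the member known from the nervous system, averaged 3.94 RPKM.

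At the low end, Cyp4d21 averaged 0.168 RPKM and Cyp313a5 0.0826 RPKM. Cyp313a2 with 10 reads and Cyp4c3 with 11 reads over all libraries stayed below the 12 reads required for testing, so 30 members were tested. Between the lowest and the highest library, Cyp4p3 and Cyp4d2 varied least among the 11 members with a mean above 10 RPKM, by 1.49 and 1.44 times, whereas Cyp4g1 varied 13.0 times.

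**Figure D1:**
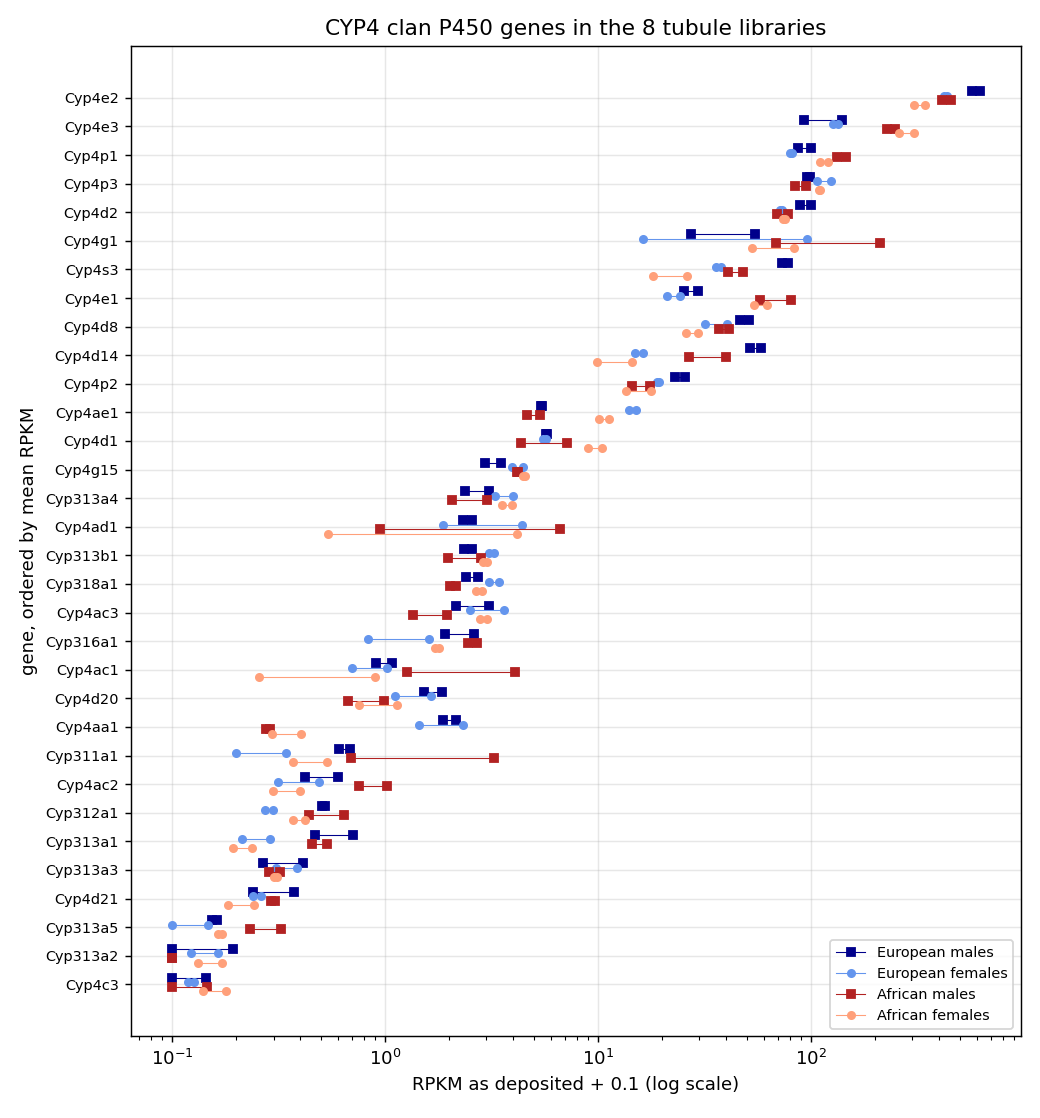
Level of each of the 32 CYP4 clan genes (rows, ordered by mean RPKM) in the 8 libraries, as RPKM plus 0.1 on a log axis. Squares are male and circles female libraries, dark and light blue European and dark and light red African, and a line joins the 2 replicates of a group. Cyp4e2 lies highest, at 305 to 623 RPKM, and the replicates of Cyp4g1, Cyp4ad1 and Cyp4ac1 lie far apart.

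The summed RPKM of the clan after scaling by TMM factors (a correction for library composition) was 1342 ± 82.1 in males and 1099 ± 103 in females, and 1148 ± 152 in Europe and 1293 ± 139 in Africa (SD, n = 4 each). Male sums ran from 1266 to 1425 and female sums from 962 to 1202, so the sexes did not overlap, whereas the populations did. Cyp4e2 alone made up 38.5% to 47.2% of the clan's deposited RPKM in European libraries and 26.7% to 35.1% in African libraries. The share of Cyp4e3 ran the other way, with 7.01% to 12.8% in European and 17.5% to 26.2% in African libraries. Of the RPKM of all P450 genes, the clan made up 8.44% to 9.82% in Europe and 15.2% to 16.4% in Africa. The sum of the 55 other P450 genes was 10347 to 12592 RPKM in Europe and 5843 to 7562 RPKM in Africa, without overlap between the populations.

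More CYP4 clan genes were male-biased than female-biased. Differences were tested with limma on log2 of TMM-scaled RPKM plus 0.1, at a false discovery rate of 5% over all 12580 genes with at least 12 reads, with population in the model. A log2 fold change below is that fitted value, male over female, and is smaller than the ratio of RPKM where a gene is low. Of the 30 members tested, 6 were male-biased (Cyp4d14, Cyp313a1, Cyp4s3, Cyp4d8, Cyp4e2 and Cyp4p1), against 7.62% of all genes tested. Cyp4ae1 was the only female-biased member, against 4.12% of all genes. The median log2 fold change of the tested members was 0.27, and that of all genes tested was 0.01.

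Cyp4d14 (FBgn0023541, CG3540) had the largest sex difference among the called members. Its RPKM was 58.0 and 51.7 in European males and 39.8 and 26.8 in African males, against 16.2 and 14.8 in European females and 14.4 and 9.77 in African females. Every male library thus lay above every female library, and the mean was 3.19 times higher in males. The log2 fold change was 1.66 (SE 0.15, limma adjusted p = 0.00209), with 1.82 within Europe and 1.49 within Africa.

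Cyp4s3 (FBgn0030615, CG9081) also separated the sexes completely. It had 73.4 and 78.4 RPKM in European males and 40.9 and 47.7 RPKM in African males, against 35.6 and 37.6 RPKM in European females and 26.3 and 18.0 RPKM in African females. Its log2 fold change was 1.06 (SE 0.12, limma adjusted p = 0.00362) and was 1.06 within each population. Cyp4s3 lies on the X chromosome, as do Cyp4d14 and Cyp4ae1, and 3 of the 9 members on X passed the sex test, where 18.1% of all tested genes on X passed. On the autosomes it was 4 of 21 tested members, where 10.6% of all tested genes passed.

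Cyp4e2 (FBgn0014469, CG2060), the most abundant member, was higher in males within each population. It had 623 and 572 RPKM in European males against 434 and 421 RPKM in European females, and 414 and 455 RPKM in African males against 305 and 345 RPKM in African females. Over both populations the sexes overlapped, since African males and European females had similar levels, and the log2 fold change with population in the model was 0.47 (SE 0.07, limma adjusted p = 0.00772).

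Cyp4d8 (FBgn0015033, CG4321) showed the same order at a lower level. It had 46.4 and 51.3 RPKM in European males and 36.8 and 41.4 RPKM in African males, against 40.2 and 31.9 RPKM in European females and 29.3 and 25.7 RPKM in African females. The fitted difference was 0.50 on the log2 scale (SE 0.09, limma adjusted p = 0.0177). This call was lost without African females 2 (adjusted p = 0.0509), European females 2 (0.0571) or European males 2 (0.0624).

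Cyp4p1 (FBgn0015037, CG10842) had the smallest difference that passed. Its RPKM was 87.2 and 100.1 in European males and 146 and 133 in African males, against 79.9 and 81.1 in European females and 111 and 121 in African females. Both male libraries lay above both female libraries within each population. Its log2 fold change was 0.26 (SE 0.06, limma adjusted p = 0.0307), and the call held in 1 of the 8 fits that left out a library. Only the fit without European males 1 kept it (adjusted p = 0.0221). The adjusted p was 0.0512 without African females 2, 0.0671 without African males 2, 0.0672 without African males 1, 0.0687 without African females 1, 0.0717 without European females 2, 0.0878 without European females 1 and 0.0899 without European males 2.

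Cyp313a1 (FBgn0038236, CG3360) was near the lower limit of detection, with 84 reads over all libraries. It had 0.612 and 0.371 RPKM in European males and 0.433 and 0.356 RPKM in African males, against 0.189 and 0.114 RPKM in European females and 0.0944 and 0.138 RPKM in African females. All male libraries were above all female libraries. The log2 fold change was 1.22 (SE 0.20, limma adjusted p = 0.0117), and it was 0.35 with 1 RPKM added and 1.69 with 0.01 RPKM added, both past the threshold.

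Cyp4ae1 (FBgn0015036, CG10755) was the only member called female-biased, although not all others leaned to males. Of the 30 members tested, 19 had a sex log2 fold change above 0. It had 5.37 and 5.31 RPKM in European males and 4.53 and 5.25 RPKM in African males, against 14.9 and 13.9 RPKM in European females and 11.2 and 10.0 RPKM in African females. No male library came near a female library, and the mean in females was 2.45 times that in males. The log2 fold change of -1.24 (SE 0.10, limma adjusted p = 0.00138) had the smallest adjusted p of any member in the sex comparison.

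Among the uncalled members, Cyp4p3 at 98.6, 95.5, 83.9 and 95.2 RPKM in males, against 125, 107, 110 and 109 RPKM in females, did not overlap between the sexes, but its difference of -0.25 (SE 0.07) had an adjusted p of 0.0625. In RPKM as deposited, 6 members had every male library above every female library (7.37% of all genes tested) and 4 had the reverse (6.88%). Of the 6, Cyp4s3, Cyp4d14 and Cyp313a1 were called, whereas Cyp316a1 (limma adjusted p = 0.0727), Cyp311a1 (0.0753) and Cyp312a1 (0.0598) were not. The last pair was called without African males 2 (Cyp311a1 adjusted p = 0.0299, Cyp312a1 0.0321), and Cyp312a1 also with no intensity trend (0.0382). Of the 4, only Cyp4ae1 was called, and Cyp4p3, Cyp313a4 and Cyp313b1 were not.

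The count of female-biased members rested partly on the scaling and on 1 library. It was 3 with library size alone, where Cyp4p3 (adjusted p = 0.0298) and Cyp318a1 (0.0435) were added, and 3 without African males 2, where Cyp4p3 (0.0308) and Cyp313b1 (0.0421) were added. Cyp4d21, known for its male-enriched expression in the head, had 0.273, 0.142, 0.193 and 0.204 RPKM in males and 0.141, 0.162, 0.0841 and 0.144 RPKM in females, which overlapped (adjusted p = 0.270). Markers of other organs also differed by sex. All 10 testis genes were male-biased, 5 of 8 fat body genes were female-biased and 1 was male-biased, and 1 of 8 accessory gland genes was male-biased (summed RPKM 11.8 to 51.2 in males and 0.344 to 20.2 in females). Of the testis list 5 genes and of the accessory gland list 6 were at 0 in at least 1 library. Of tubule cell markers, 2 of 7 principal cell genes were female-biased and 1 of 6 stellate cell genes was male-biased. In Europe the principal cell sum was 6888 to 7189 RPKM in males and 7759 to 7904 RPKM in females. In Africa it was 8039 to 8615 RPKM in males and 10234 to 10572 RPKM in females. The stellate cell sum overlapped between the sexes. Female-biased were also 2 of 5 oenocyte and 2 of 6 ovary genes. The part of these markers in the sex differences of the CYP4 genes was not tested.

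**Figure D2:**
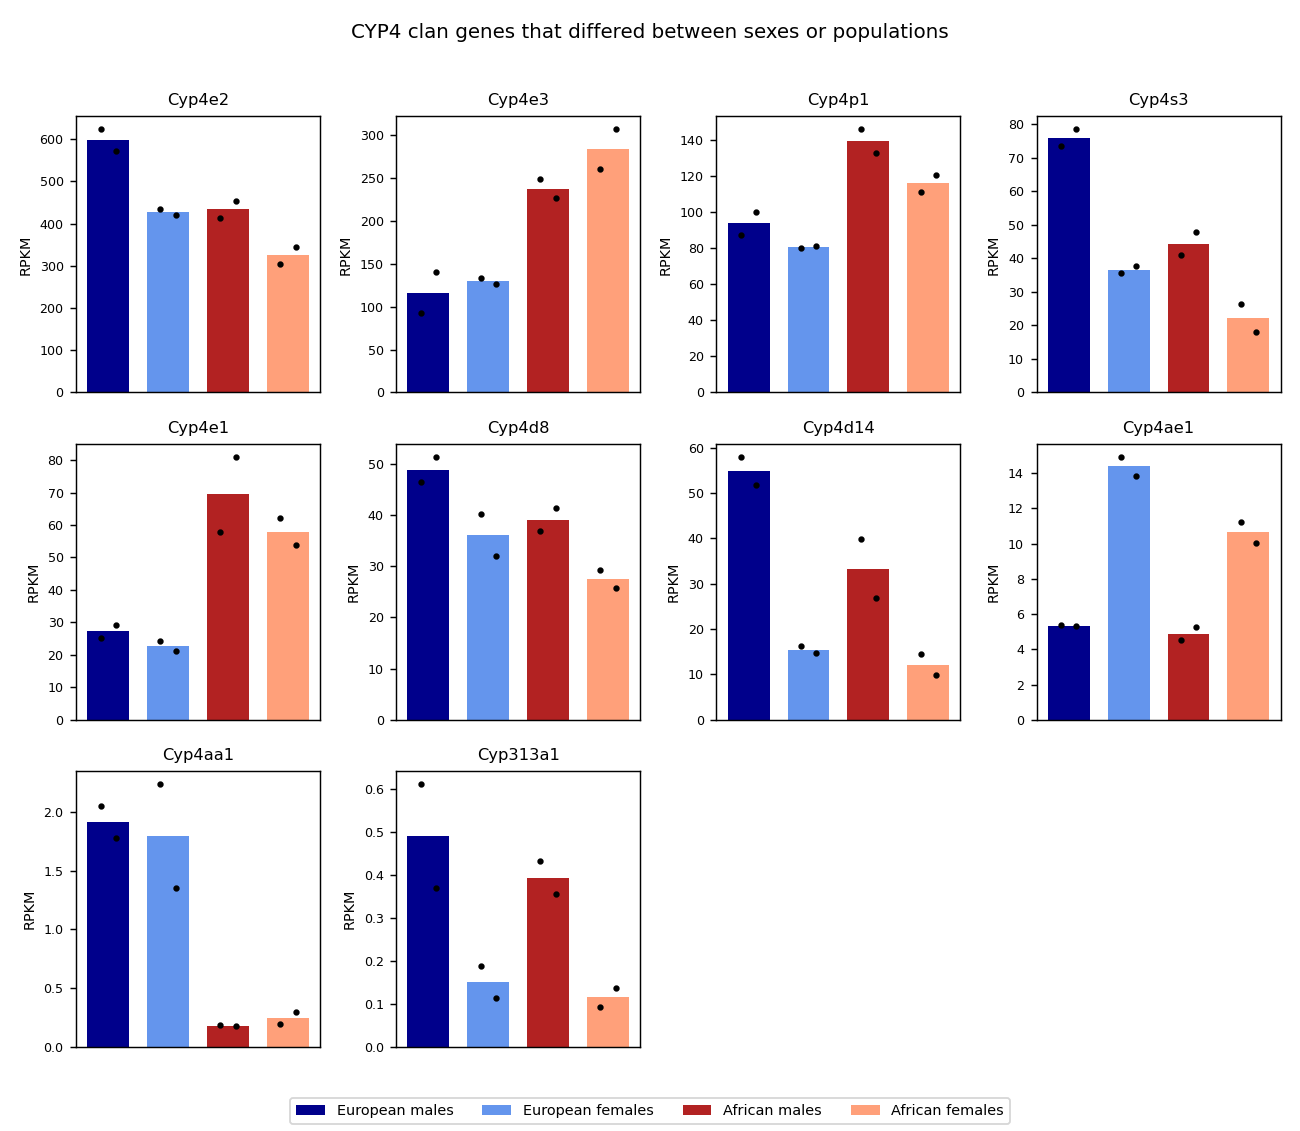
RPKM as deposited of the 10 CYP4 clan genes that passed the sex or the population test, 1 panel per gene, with a linear axis from 0. Bars are means of the 2 replicates of a group and points are the libraries. Cyp4d14, Cyp4s3 and Cyp313a1 are higher in every male library, Cyp4ae1 is higher in every female library, and Cyp4aa1 reaches 1.35 to 2.23 RPKM in Europe and 0.176 to 0.302 RPKM in Africa.

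Between the populations, CYP4 clan genes differed in both directions. With sex in the model, 3 of the 30 members were Europe-biased (Cyp4aa1, Cyp4s3 and Cyp4e2), against 6.53% of all genes tested, and 3 were Africa-biased (Cyp4e1, Cyp4e3 and Cyp4p1), against 5.39%. Log2 fold changes here are Europe over Africa. Their median was 0.04 in the members and 0.01 in all genes tested. The split over all genes depended on the scaling, with 821 Europe-biased and 678 Africa-biased genes with TMM and 1523 and 447 with library size alone, which moved the median of all genes to 0.08.

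Cyp4aa1 (FBgn0034053, CG8302) had the largest population difference among the members. It had 2.05 and 1.77 RPKM in European males and 2.23 and 1.35 RPKM in European females, against 0.187 and 0.176 RPKM in African males and 0.194 and 0.302 RPKM in African females. The mean was 8.62 times higher in Europe (1.85 ± 0.386 RPKM) than in Africa (0.215 ± 0.0586 RPKM; SD, n = 4 each). The populations were far apart in both sexes. Its log2 fold change was 2.56 (SE 0.21, limma adjusted p = 0.000682), and it was 1.19 with 1 RPKM added, which also passed.

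Cyp4e1 and Cyp4e3 differed in the opposite direction. Cyp4e1 (FBgn0015034, CG2062) had 25.3 and 29.3 RPKM in European males and 24.2 and 21.1 RPKM in European females, against 57.9 and 81.0 RPKM in African males and 62.1 and 53.8 RPKM in African females. The African mean was 2.55 times the European mean, without overlap, and the log2 fold change was -1.42 (SE 0.13, limma adjusted p = 0.000864), with -1.43 in males and -1.42 in females.

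Cyp4e3 (FBgn0015035, CG4105), the member tied to permethrin tolerance, had 92.5 and 140 RPKM in European males and 133 and 127 RPKM in European females. African males had 248 and 227 RPKM and African females 261 and 307 RPKM. The mean was 123 ± 21.1 RPKM in Europe and 261 ± 33.7 RPKM in Africa (SD, n = 4 each), which is 2.12 times as much in Africa. The populations did not overlap, and the log2 fold change was -1.18 (SE 0.13, limma adjusted p = 0.00185), whereas the sexes did not differ by the test (-0.20, SE 0.13, adjusted p = 0.377).

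Cyp4p1 was Africa-biased as well as male-biased. Its 4 European libraries lay between 79.9 and 100.1 RPKM and its 4 African libraries between 111 and 146 RPKM. The log2 fold change was -0.63 (SE 0.06, limma adjusted p = 0.00101), so that the highest group was African males for this gene.

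Cyp4s3 and Cyp4e2 were Europe-biased and male-biased, with their highest group in European males. The population log2 fold change of Cyp4s3 was 0.68 (SE 0.12, limma adjusted p = 0.0117), with 0.68 in each sex. For Cyp4e2 it was 0.34 (SE 0.07, limma adjusted p = 0.0197). That call was lost without African females 1 (adjusted p = 0.0528), European males 2 (0.0550), European females 2 (0.0575), European females 1 (0.0637) or European males 1 (0.0645). The calls for Cyp4aa1, Cyp4s3, Cyp4e1, Cyp4e3 and Cyp4p1 held in all 17 alternative fits.

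More members counted as Europe-biased when the replicate number entered the model as a block. The number was then 6, with Cyp4p2 (0.37, adjusted p = 0.0331), Cyp4d14 (0.48, 0.0353) and Cyp4d20 (0.72, 0.0354) added to the 3, against 6.02% of all genes tested with the block. Without the block their adjusted p were 0.0542, 0.0890 and 0.0883. Cyp4p2 had 25.6 and 22.9 RPKM in European males and 19.3 and 18.8 RPKM in European females, against 17.5 and 14.4 RPKM in African males and 17.7 and 13.5 RPKM in African females, so it did not overlap between the populations.

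In all, 2 members had every European library above every African library (Cyp4p2 and Cyp4aa1), against 13.2% of all genes tested, and 4 had the reverse (Cyp4e3, Cyp4p1, Cyp4e1 and Cyp313a5), against 4.25%. These counts and shares used RPKM as deposited, without TMM factors. Those factors were 1.02 to 1.04 in European and 0.927 to 0.997 in African libraries, so the 2 shares depend on the scaling. Cyp313a5 rests on 24 reads in all. Marker levels also differed by population. Of 7 principal cell genes, 3 were Africa-biased (summed RPKM 6888 to 7904 in Europe and 8039 to 10572 in Africa), as was 1 of 6 stellate cell genes (430 to 495 RPKM in Europe and 510 to 563 RPKM in Africa), and no gene of either list was at 0 in a library. Their part in the population differences of the CYP4 genes was not tested.

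**Figure D3:**
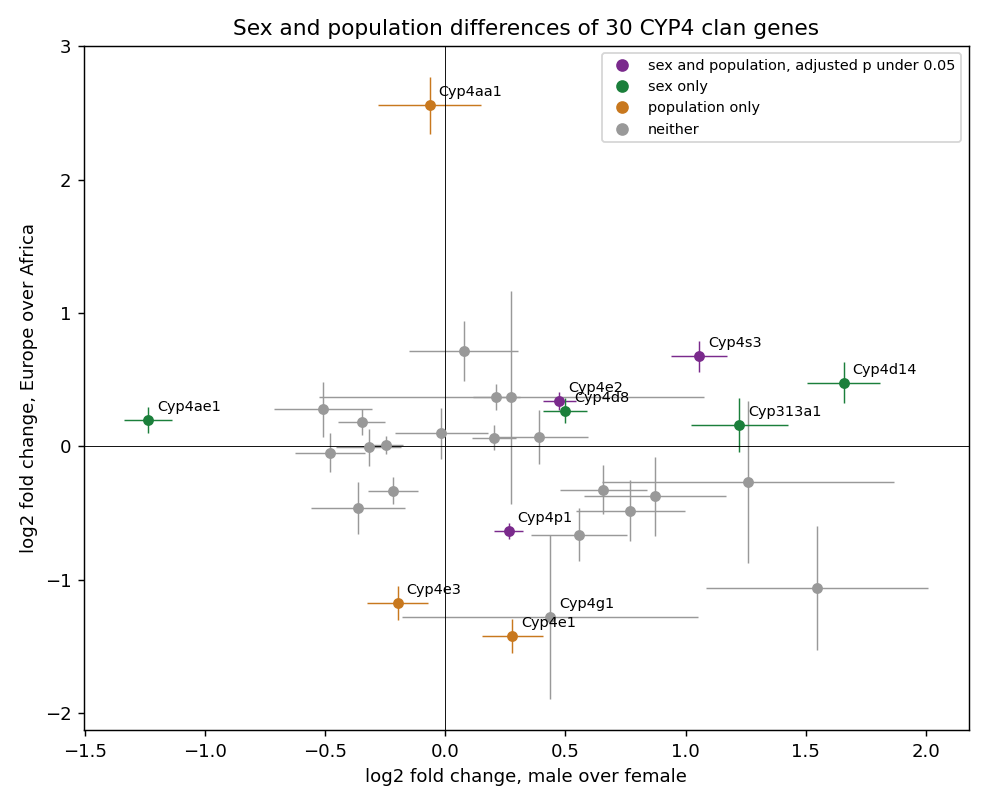
Fitted log2 fold change between males and females (x axis) and between Europe and Africa (y axis) of the 30 CYP4 clan genes tested, with bars of 1 SE. Colors mark genes with an adjusted p under 0.05 in both comparisons (3), in sex only (4), in population only (3) or in neither (20). Cyp4aa1 stands highest at 2.56 and Cyp4e1 lowest at -1.42, and Cyp4ae1 lies alone at the left at -1.24.

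Taking both comparisons, 10 of the 30 members passed at least 1 test. The calls lay mostly among abundant members. Of the 11 members with a mean above 10 RPKM, 7 were called for sex or population, against 28.1% of all 4399 tested genes at that level, and of the 19 at 10 RPKM or less, 3 were called, against 17.7% of 8181 genes. By arm, 4 of the 7 members on 2R were called for population (Cyp4e1, Cyp4p1, Cyp4aa1 and Cyp4e2, the last of which lost its call without some libraries, as given above), where 12.1% of all tested genes on 2R were called, as were Cyp4e3 on 2L and Cyp4s3 on X.

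No member had a sex difference that passed the test of a difference between the populations. The interaction term is the sex log2 fold change in Europe minus that in Africa. By limma it was past the threshold for 0 of the 30 members and for 0.0556% of all genes, and adjusted p of the members were 0.566 and above. Voom, an alternative that weights log counts, also called 0 members. At an unadjusted limma p under 0.05 there were 2 of the 30 members, against 529 genes with a positive and 427 with a negative term among all 12580 tested. The 2 were Cyp4d1 (0.79, SE 0.28, unadjusted p = 0.0262 with limma, adjusted p = 0.566) and Cyp4d2 (0.37, SE 0.13, unadjusted p = 0.0274 with limma, adjusted p = 0.567).

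Cyp4d1 had 5.66 and 5.58 RPKM in European males and 5.44 and 5.61 RPKM in European females, and 7.03 and 4.26 RPKM in African males and 10.3 and 8.94 RPKM in African females. The sexes overlapped in Europe and were apart in Africa. Without African males 2, Cyp4d1 was Africa-biased (-0.67, limma adjusted p = 0.0227). Cyp4d2 had 99.7 and 89.0 RPKM in European males and 73.2 and 71.4 RPKM in European females, and 69.4 and 78.2 RPKM in African males and 75.9 and 74.0 RPKM in African females. For this gene European males stood above the other 3 groups.

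Many members lie beside each other in the genome, which allows neighbors to be compared. Gene order was taken from RefSeq. No use of strand in counting is stated, so that reads of overlapping or antisense genes cannot be told apart, and how reads shared by similar copies were assigned between genes is not given in the sources used here. In the row Cyp4p2, Cyp4p1 and Cyp4p3 on 2R, each gene had its own pattern. Cyp4p2 lay higher in every European library, Cyp4p1 lay higher in every African library, and Cyp4p3 lay higher in every female library. In deposited RPKM, 13.2%, 4.25% and 6.88% of all genes tested did so. By limma, Cyp4p1 passed for population and for sex. Cyp4p2 did not pass for population (adjusted p = 0.0542), nor Cyp4p3 for sex (0.0625). The ratio of Cyp4p1 to Cyp4p3 was 0.642 to 1.05 in Europe and 1.01 to 1.74 in Africa.

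In the row Cyp4ad1, Cyp4e2, mir-986 and Cyp4e1, also on 2R, the 2 abundant genes differed in direction between the populations. The ratio of Cyp4e2 to Cyp4e1 was 17.9 to 24.7 in European libraries and 4.92 to 7.15 in African libraries. Cyp4ad1 had 2.22 and 2.45 RPKM in European males, 4.31 and 1.78 in European females, 6.56 and 0.851 in African males and 4.06 and 0.441 in African females. Its replicates were too far apart to show a difference of sex (0.28, SE 0.80, limma adjusted p = 0.872) or population (0.37, SE 0.80, adjusted p = 0.807). Cyp4e3 lies on the other arm of this chromosome, 2L, and the ratio of Cyp4e2 to Cyp4e3 was 3.25 to 6.74 in Europe and 1.12 to 2.01 in Africa.

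On X, the order was Cyp4d1, Cyp4d14, Cyp4d2 and Cyp4ae1, with 3 other genes between the first pair and 2 antisense RNA genes between Cyp4d14 and Cyp4d2. Cyp4d14 and Cyp4ae1, at either side of Cyp4d2, had opposite sex bias, so that the ratio of Cyp4d14 to Cyp4ae1 was 5.10 to 10.8 in males and 0.976 to 1.28 in females. Cyp4d2 between them did not pass the sex test (0.20, SE 0.09, limma adjusted p = 0.211). Its difference was 0.39 within Europe and 0.02 within Africa. On 3L, Cyp316a1 is next to the male-biased Cyp4d8. Its RPKM was 1.81, 2.51, 2.35 and 2.61 in males and 1.51, 0.735, 1.61 and 1.70 in females, all males above all females, with a difference of 0.77 (SE 0.23) that did not pass (adjusted p = 0.0727).

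The other groups of neighbors were low in the tubules. In the row Cyp4ac1, Cyp4ac2 and Cyp4ac3 on 2L, the mean levels were 1.18, 0.438 and 2.46 RPKM. Cyp4ac3, the most abundant of them, had 2.97, 2.06, 1.86 and 1.26 RPKM in males and 3.54, 2.41, 2.93 and 2.68 RPKM in females, which overlapped (adjusted p = 0.159). In the row Cyp313a5, Cyp313a2 and Cyp313a3 on 3R, all means were under 1 RPKM, at 0.0826, 0.0358 and 0.225 RPKM. Cyp311a1 and Cyp318a1, adjacent on X, averaged 0.739 and 2.57 RPKM. Cyp318a1 had 2.29, 2.64, 1.93 and 2.06 RPKM in males and 3.34, 2.98, 2.57 and 2.74 RPKM in females, with a difference of -0.35 (SE 0.10, limma adjusted p = 0.0639) that did not pass. Away from these rows, Cyp313a4 averaged 3.07 RPKM, Cyp313b1 2.64 RPKM, Cyp4d20 1.11 RPKM and Cyp312a1 0.335 RPKM.

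**Figure D4:**
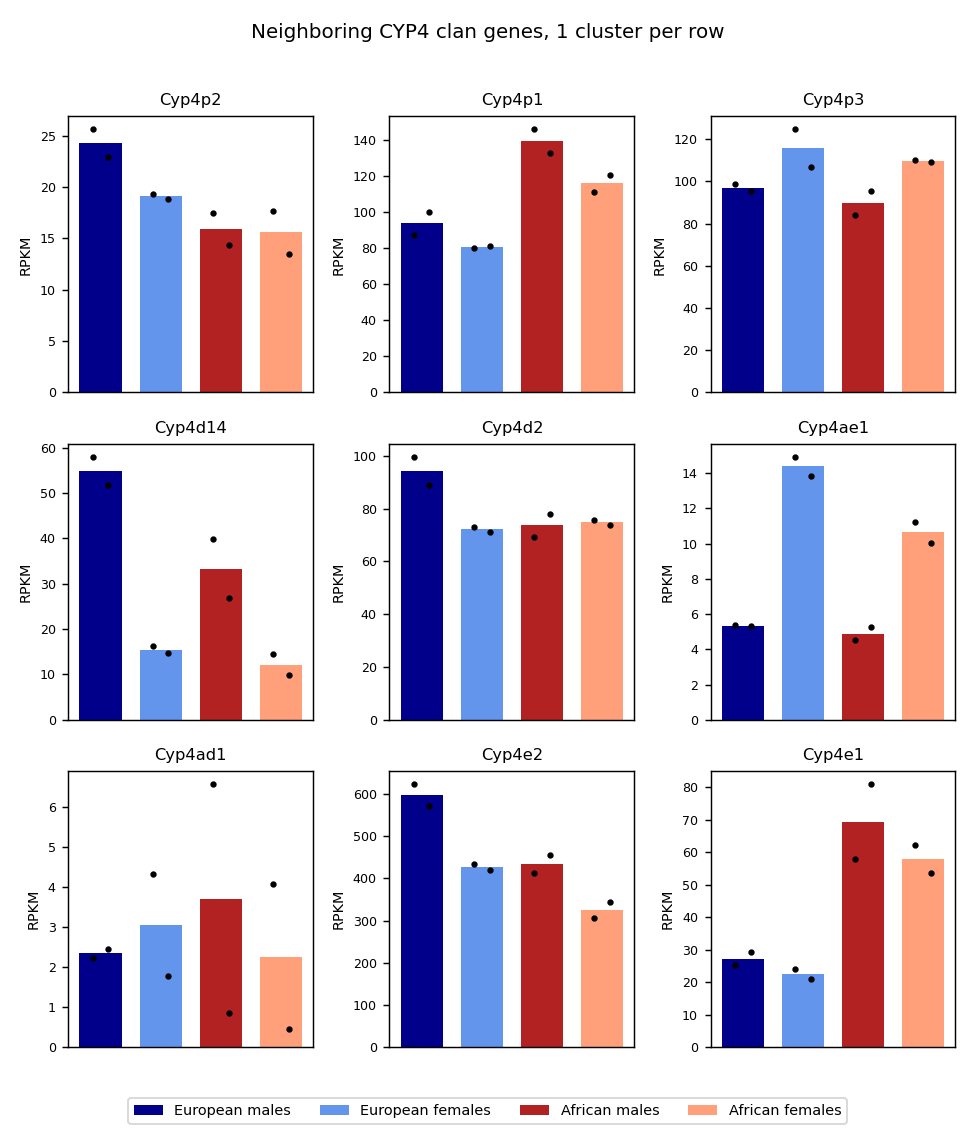
RPKM as deposited of 9 CYP4 clan genes from 3 groups of neighbors (the rows, in gene order), with linear axes from 0. Bars are means of 2 replicates and points are libraries. The top row holds Cyp4p2, Cyp4p1 and Cyp4p3, the middle row Cyp4d14, Cyp4d2 and Cyp4ae1, and the bottom row Cyp4ad1, Cyp4e2 and Cyp4e1, where Cyp4e2 is at 305 to 623 RPKM and Cyp4ad1 at 0.441 to 6.56 RPKM.

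Cyp4g1, the hydrocarbon enzyme of oenocytes, had replicates that lay far apart. It had 54.5 and 27.3 RPKM in European males, 95.8 and 16.2 RPKM in European females, 210.2 and 68.8 RPKM in African males and 83.6 and 52.8 RPKM in African females. Neither sex (0.44, SE 0.61, limma adjusted p = 0.713) nor population (-1.28, SE 0.61, adjusted p = 0.227) passed the test. In 4 of 4 groups the first replicate was higher, by 2.00, 5.93, 3.06 and 1.58 times in the order just given. FASN2 and FASN3, fatty acid synthases of oenocytes, were also higher in the first replicate in 4 of 4 groups, and FarO, Fad2 and eloF, further genes of lipid synthesis in these cells, in 3 of 4. This order was not particular to them. Cyp4d14, Cyp4p2, Cyp4ac3 and Cyp4d20 had it in 4 of 4 groups too, by at most 1.58 times. Cyp4p3, Cyp4d2 and Cyp4ae1 were among the members with 3 of 4. The share over all genes was not counted.

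The oenocyte markers were low. FASN2 reached at most 1.79 RPKM and FASN3 2.71 RPKM, and the list of 5 summed to 1.43 to 5.56 RPKM in males and 5.40 to 29.5 RPKM in females, with the female-biased Fad2 and eloF making up most of the female sum and no gene at 0 in a library. Its part in the level of Cyp4g1 was not tested.

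**Figure D5:**
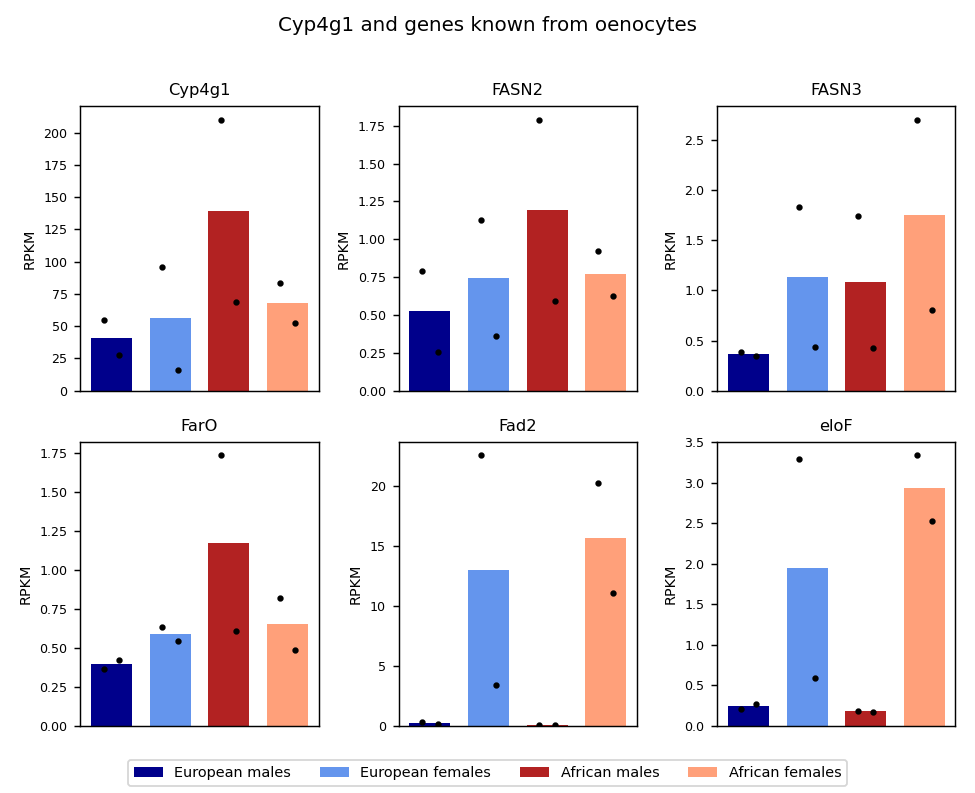
RPKM as deposited of Cyp4g1 and of 5 genes known from oenocytes, 1 panel per gene, with linear axes from 0. Bars are means of 2 replicates and points are libraries, with the first replicate at the left of a bar. The first replicate of Cyp4g1, FASN2 and FASN3 is the higher in all 4 groups, and Fad2 and eloF are near 0 in males.

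A few low members were high in African males 1, the library with the highest midgut marker sum. Cyp4ac1 had 4.00 RPKM there, against 0.157 to 1.16 RPKM in the other libraries. For Cyp311a1, the gene known from the larval midgut, the values were 3.17 RPKM and 0.101 to 0.596 RPKM. Cyp4ad1 was also highest there, at 6.56 RPKM against 0.441 to 4.31 RPKM. African males 2 had the second highest midgut sum, 829.6 RPKM, mostly from Jon99Cii (408 RPKM), Amy-d (177) and Amy-p (169). Not all genes of the list followed the sum. In African males 2, betaTry (4.27 RPKM) was the lowest of all libraries, and alphaTry (21.0 RPKM) was below African females 1 (63.4 RPKM). Cyp4ac1 had 1.16 RPKM, Cyp311a1 0.596 RPKM and Cyp4ad1 0.851 RPKM in African males 2. Cyp4ad1 was higher than that in African females 1 (4.06 RPKM) and European females 1 (4.31 RPKM). The midgut list of 9 genes, none at 0 in a library, summed to 3040 RPKM in African males 1, and its part in these levels was not tested.

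Without African males 1, the sex difference was 0.73 (adjusted p = 0.406) for Cyp4ac1 and 1.07 (adjusted p = 0.0642) for Cyp311a1, against 1.26 (adjusted p = 0.235) and 1.55 (adjusted p = 0.0753) with it. None of these differences passed, but without African males 2 Cyp311a1 was male-biased (1.92, adjusted p = 0.0299). The counts of called members were much the same without African males 1. There were 6 male-biased members, of which 5 were shared (Cyp4p1 was lost and Cyp4d2 was added, adjusted p = 0.0392), and the female-biased, the 3 Europe-biased and the 3 Africa-biased members did not change.

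Genes listed as electron partners of P450 enzymes were examined, 6 in all. Of these, 3 were male-biased (Cpr, Cyt-b5 and Fdx2), against 7.62% of all genes tested, and 2 Europe-biased (Cpr and Cyt-b5), against 6.53%. None had the opposite bias. The sex calls of all 3 were lost in some or all fits without 1 library, as given below for each. Such fits also called fewer of all genes for sex. Cpr encodes NADPH-cytochrome P450 reductase, the electron donor of microsomal P450 enzymes. It had 226 and 230 RPKM in European males and 211.4 and 210.8 RPKM in European females, against 158 and 151 RPKM in African males and 144 and 147 RPKM in African females. All European libraries lay above all African libraries, and the population log2 fold change was 0.46 (SE 0.03, limma adjusted p = 0.000317), while that of sex was 0.12 (SE 0.03, adjusted p = 0.0450). The sex call of Cpr was lost in each of the 8 fits without 1 library (adjusted p = 0.0722 to 0.163), and with library size alone (0.0688), at least 1 read (0.0512), voom (0.0676) and no intensity trend (0.166).

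Cyt-b5, cytochrome b5, which can pass on a second electron, averaged 615 ± 69.4 RPKM in Europe and 442 ± 52.5 RPKM in Africa (SD, n = 4 each) without overlap. Its log2 fold changes were 0.39 for population (SE 0.05, limma adjusted p = 0.00458) and 0.30 for sex (SE 0.05, adjusted p = 0.0152), and the sex call was lost without European males 2 (adjusted p = 0.0570) or European females 1 (0.0572). Fdx2, a mitochondrial ferredoxin, was male-biased (0.42, SE 0.10, limma adjusted p = 0.0357). Its call was lost with no intensity trend (adjusted p = 0.0696) and without African males 1 (0.0690), African males 2 (0.0783), African females 2 (0.0912), African females 1 (0.0942), European males 2 (0.101) or European females 1 (0.102). Cyt-b5-r was listed by its symbol, and no role in electron transfer was established for it here. It was not called (population 0.64, SE 0.17, limma adjusted p = 0.0525, sex 0.42, SE 0.17, adjusted p = 0.164). With the replicate block it was both Europe-biased (adjusted p = 0.00129) and male-biased (0.00794). It was also Europe-biased with library size alone (0.0393), voom (0.0396), at least 100 reads (0.0476) and without European females 2 (0.0472). Neither dare nor Fdx1, the reductase and a ferredoxin of mitochondria, was called.

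The 55 other P450 genes of the fly, of which 53 were tested, had 13 male-biased, 3 female-biased, 10 Europe-biased and 8 Africa-biased members. Their median log2 fold change was 0.16 for sex and -0.07 for population, against 0.27 and 0.04 in the CYP4 clan. Called members made up 30.2% of the others for sex and 34.0% for population, against 23.3% of the clan for sex and 6 of its 30 members for population. Of all genes tested, 11.7% were called for sex and 11.9% for population.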

How the data were processed

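The authors mapped single-end reads of 50 bases from Malpighian tubules to a FlyBase transcriptome of an earlier genome build than the reference used here with NextGenMap, assigned each read that matched any isoform to its gene, and deposited RPKM over the longest transcript, 1 file per library, without a factor for library composition. The paper and the labels differ on the age of the flies, the anesthetic and the sequencer model, and RNA was not treated with DNase. Every value was a whole number of reads (100% within 0.01 read), which gave 19528634 to 27099855 reads per library. The number of reads behind a gene sets the precision of its value, from 24 reads over all libraries for the lowest member tested to 152975 for Cyp4e2.

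Symbols came from the gene ID (13585 genes) or the CG number (261), and 96 genes had no match. No coordinates are given, because of this difference in build, and the reference was used for names and gene order only. The filter kept the 12580 genes with 12 or more reads in all. After division of RPKM by TMM factors (0.927 to 1.04, trims of 30% and 5%) and addition of 0.1, log2 values of all 8 libraries were fitted with limma 3.58.1 in R 4.3.3 (moderated with an intensity trend), with sex and population, or with both and their product, and Benjamini-Hochberg adjustment at 5% over all genes tested. This follows the two-factor layout of the study, but not its count model: the deposited unit is RPKM, and the reads worked back from it were used for scaling and for voom. The scripts were tested on simulated data. Fold changes within 1 sex or population carry no test.

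Replicates are biological per the labels. The paper's methods have RNA of all samples extracted and made into libraries side by side, and whether equal replicate numbers mark a shared dissection day is not given in the sources used here. Differences between replicates 2 and 1 correlated between groups in all 6 pairs of groups (r = 0.137 to 0.468 over 9785 genes with at least 100 reads), so a fit with the replicate number as a block was also made. Other alternatives were library size alone, median-of-ratios scaling, 1 or 0.01 RPKM added, at least 1 or at least 100 reads, voom on the reads, no intensity trend and leaving out each library.

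Members and lists were chosen with earlier results of these data known. Named are the members called in a test, the 5 highest, their neighbors in gene order, and the list of 6 electron partners. Other members are named for their level, or, as with Cyp4g1, Cyp4ac1 and Cyp311a1, after their values were seen. Cyclophilin genes, whose symbols also begin with Cyp, were left out of the other P450 genes (2 genes), and marker lists had 2 names with no match.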

Additional observations from a re-analysis of the deposited data

Results flagged for a closer look

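Of 48 groups of 4 libraries examined (12 named members, males, females, Europe and Africa), 2 had 1 library set apart from the other 3 by more than Dixon's critical value. That value is set so that chance gives about 1 in 20 among independent values of 1 kind. Here each group mixed populations or sexes and groups shared libraries, so this rate need not hold. Cyp4ae1 had 4.53 RPKM in African males 1, against 5.25 to 5.37 RPKM in the other male libraries, all far below the female libraries. Cyp4aa1 had 0.302 RPKM in African females 2, against 0.176 to 0.194 RPKM in the other African libraries, all far below the European libraries.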

How the results depend on the processing

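The sex calls of Cyp4e2, Cyp4s3, Cyp4d14, Cyp4ae1 and Cyp313a1 and the population calls of Cyp4aa1, Cyp4s3, Cyp4e1, Cyp4e3 and Cyp4p1 held in every alternative that tested them, and no called difference changed direction. Uncalled differences near 0 changed sign in some alternatives, such as that of Cyp4aa1 between the sexes (-0.07, and 0.11 with voom) and that of Cyp313a4 between the populations (-0.05, and 0.04 with library size alone). Cyp313a1 was not tested with a minimum of 100 reads. The count of female-biased members (1) was 3 with library size alone and 2 with no intensity trend, and without 1 library it was 1 to 3. The count of Europe-biased members (3) was 5 with library size alone (Cyp4d8 and Cyp4p2 added), 5 with voom (Cyp4d14 and Cyp4p2 added) and 2 to 4 without 1 library. With the replicate number as a block it was 6, and the block changed no other call of a member. Male-biased members numbered 4 to 7 and Africa-biased members 3 to 4 without 1 library, and interaction calls stayed at 0. Cyp4p1 lost its sex call with no intensity trend (adjusted p = 0.0746). The cause was not tested for any of these. Where a library was left out, its group had 1 library, assumed to vary like the other groups. Each such fit called fewer of all genes for sex and for population than the main fit, so a lost call need not point to the library left out. With 2 replicates per group, and 84 reads or fewer for the lowest members, small differences may have been missed.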
